A study of Mus musculus with 3 samples.

Results

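The 49 genes described here act in S phase, when DNA is copied, or in G2 and M phase, when chromosomes are separated, and are referred to as the members. They were listed by symbol from known function, with earlier results of these data known, and all 49 were found among the 32285 genes counted. Of them, 19 work in replication and 29 in mitosis, while Stmn1, a regulator of microtubules that is also carried by cells that do not divide, was put in neither list. The cells were leukocytes sorted on the surface protein CD45 from hearts of C57BL/6J mice, 8 to 9 weeks old. There were 3 groups with 1 library each: Sham, MI, which by its name is the heart after myocardial infarction, and MI-E, whose meaning the labels leave unsaid. One surgical text, ligation of a coronary artery, is attached to all 3, Sham included, and the labels state no time after surgery and no number of hearts. The labels name no transgene and no drug.

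A cell that enters S phase loads the helicase onto DNA, makes nucleotides and copies its genome, and these steps draw on genes switched on by the E2F factors. Genes of mitosis are switched on later, through the B-Myb and FOXM1 complexes bound at a promoter element called CHR, often with CCAAT boxes nearby. Cardiac macrophages are known to be kept up partly by division in place and partly by blood monocytes, which stop dividing before they leave the marrow. Mature neutrophils do not divide, so that their member counts give a background here, which other classes need not share.

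Promoters of a pair of members from each list are shown here, because these elements can be looked for in their letters. RefSeq start sites were matched for 41 of the 49 members, on build GRCm38.p6, which is the mm10 assembly of the counts. The 250 bases before the start site are printed for 4 members, in the direction of the gene. They are Pclaf (chr9:65890073-65890322, + strand), Mcm5 (chr8:75109259-75109508, + strand), Ube2c (chr2:164769679-164769928, + strand) and Cdk1 (chr10:69352913-69353162, - strand). Capitals mark any of 3 motifs on either strand: TTTNNCGC for E2F, TTTGAA for CHR, and CCAAT.
Pclaf: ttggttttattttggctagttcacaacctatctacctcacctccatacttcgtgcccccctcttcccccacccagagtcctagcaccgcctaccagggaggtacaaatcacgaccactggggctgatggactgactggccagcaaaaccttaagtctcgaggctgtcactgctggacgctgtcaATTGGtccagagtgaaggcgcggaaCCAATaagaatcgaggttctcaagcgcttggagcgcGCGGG
Mcm5: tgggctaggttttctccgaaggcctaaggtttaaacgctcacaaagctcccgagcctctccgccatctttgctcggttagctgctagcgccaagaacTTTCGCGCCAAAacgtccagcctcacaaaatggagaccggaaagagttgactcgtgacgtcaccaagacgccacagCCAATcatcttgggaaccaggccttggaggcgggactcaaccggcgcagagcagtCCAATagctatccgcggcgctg
Ube2c: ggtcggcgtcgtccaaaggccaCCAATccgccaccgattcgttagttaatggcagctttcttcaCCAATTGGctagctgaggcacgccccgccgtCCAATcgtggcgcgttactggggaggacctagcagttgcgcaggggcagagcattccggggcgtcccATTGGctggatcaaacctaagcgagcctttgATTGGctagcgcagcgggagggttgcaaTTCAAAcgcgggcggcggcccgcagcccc
Cdk1: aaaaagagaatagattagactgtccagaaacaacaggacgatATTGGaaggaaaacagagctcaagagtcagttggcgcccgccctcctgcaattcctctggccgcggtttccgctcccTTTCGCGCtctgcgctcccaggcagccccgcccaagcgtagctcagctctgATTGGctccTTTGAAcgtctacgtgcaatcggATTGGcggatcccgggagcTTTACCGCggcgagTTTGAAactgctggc
Pclaf holds an E2F match 5 bases before its start and no CHR match, and the last 3 bases of that E2F match lie past the printed stretch. Mcm5 holds 2 overlapping E2F matches. Ube2c holds a CHR match 29 bases before its start and 6 CCAAT boxes, of which 1 pair overlaps. Cdk1, which was counted among the mitosis members, holds both kinds, with 2 E2F and 2 CHR matches.

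Over the window that reaches from 250 bases before the start to 50 after it, the E2F motif was found in 9 of 16 replication members and 1 of 25 mitosis members. The same letters were found in 5.27% of 27025 genes with such a window. CHR was found in 1 of 16 replication members and 19 of 25 mitosis members, against 18.1% of all genes. CCAAT was found in 10 of 16 and 23 of 25, against 37.9% of all genes. A match is a description of the letters and does not show that a factor was bound. Pcna, the sliding clamp of the replication fork, had no match to the E2F motif in this window and 1 CCAAT box.

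Total depth was 41140109 UMIs (unique molecules counted) (Sham), 98814001 (MI) and 104562768 (MI-E). After filters 10079, 8169 and 11004 cells were left, in that order, and between 26 and 45 barcodes were shared by any 2 libraries. Clusters were made without the members or other cell cycle genes and were named from fixed markers as monocyte-macrophage cells, dendritic cells, neutrophils, T, NK and B cells, fibroblasts and endothelial cells. The last 2 classes should not carry CD45 and were 278 and 596 cells. A group is 1 library, so no difference below could be checked against replicates, and no test was made. All intervals are 95% intervals that cover counting error only, and molecules of 1 cell are not independent. Because summed counts are used, more cells in division and more RNA per dividing cell cannot be told apart from a class total alone, so shares of cells follow after the levels.

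In monocyte-macrophage cells the members were higher in MI than in Sham and lower again in MI-E. This class held 3894 cells (Sham), 6625 (MI) and 6262 (MI-E). Levels are UMIs scaled to the total of the class, as counts per 1e6 (CPM), and a member with a mean of at least 5 CPM over a pair of libraries counts as measured for that pair. For MI over Sham, 37 of 43 measured members were at least 1.5-fold higher and 0 were as much lower, where 24.7% of 8427 genes were that much higher and 18.7% that much lower. Their median log2 ratio, of CPM + 1, was 1.62, against 0.11 over all genes tested. For MI-E over MI, 39 of 43 were at least 1.5-fold lower and 0 higher, where 4.86% of 8072 genes were that much lower and 4.24% higher. The median log2 ratio of the members was -1.25, against 0.03 over all genes. Both comparisons use the same MI library, so they are not independent of each other. For MI-E over Sham, 11 of 33 measured members were at least 1.5-fold higher and 2 lower. Of 8344 genes 25.9% were that much higher and 19.4% lower, so the lower members were fewer than that share. The median log2 ratio of the members was 0.29, against 0.12 over all genes. Members that passed the filter only through the library where they are high enter these counts, so all 49 were counted as well. By point value 47 of the 49 were highest in MI, the exceptions being Pcna and Cdt1. For MI-E over Sham 36 of the 49 were higher and 13 lower.

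The subsets behind the class differed between the libraries. Clusters 3 and 11, led by Lyve1 and by MHC class II genes, made up 59.0% and 23.9% of the Sham cells of the class, and both were under 1% in MI and MI-E. In MI the class was mostly clusters 2, 1 and 6, led by Gpnmb, Arg1 and Syngr1, and in MI-E clusters 1, 4 and 2, with cluster 4 led by Ly6c2. Averaged within the 8 clusters that held at least 50 cells in both MI and MI-E, the median log2 ratio of the members was -0.64 and 22 of 43 were at least 1.5-fold lower in MI-E, as were 2.56% of all genes by the same average. Only clusters 4 and 16 held at least 50 cells in both Sham and MI. They held 139 and 357 Sham cells and 466 and 67 MI cells, a small part of the class. Averaged within these 2, 42 of 43 members were at least 1.5-fold higher in MI, as were 21.1% of all genes. The median log2 ratio of the members there was 2.00. Other scaling also bears on the counts: with TMM factors the median log2 ratio of all genes for MI over Sham moved from 0.11 to 0.29, and the higher share of all 1.5-fold calls from 56.9% to 69.9%. For MI-E over Sham it moved from 57.1% to 69.8%.

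**Figure D1:**
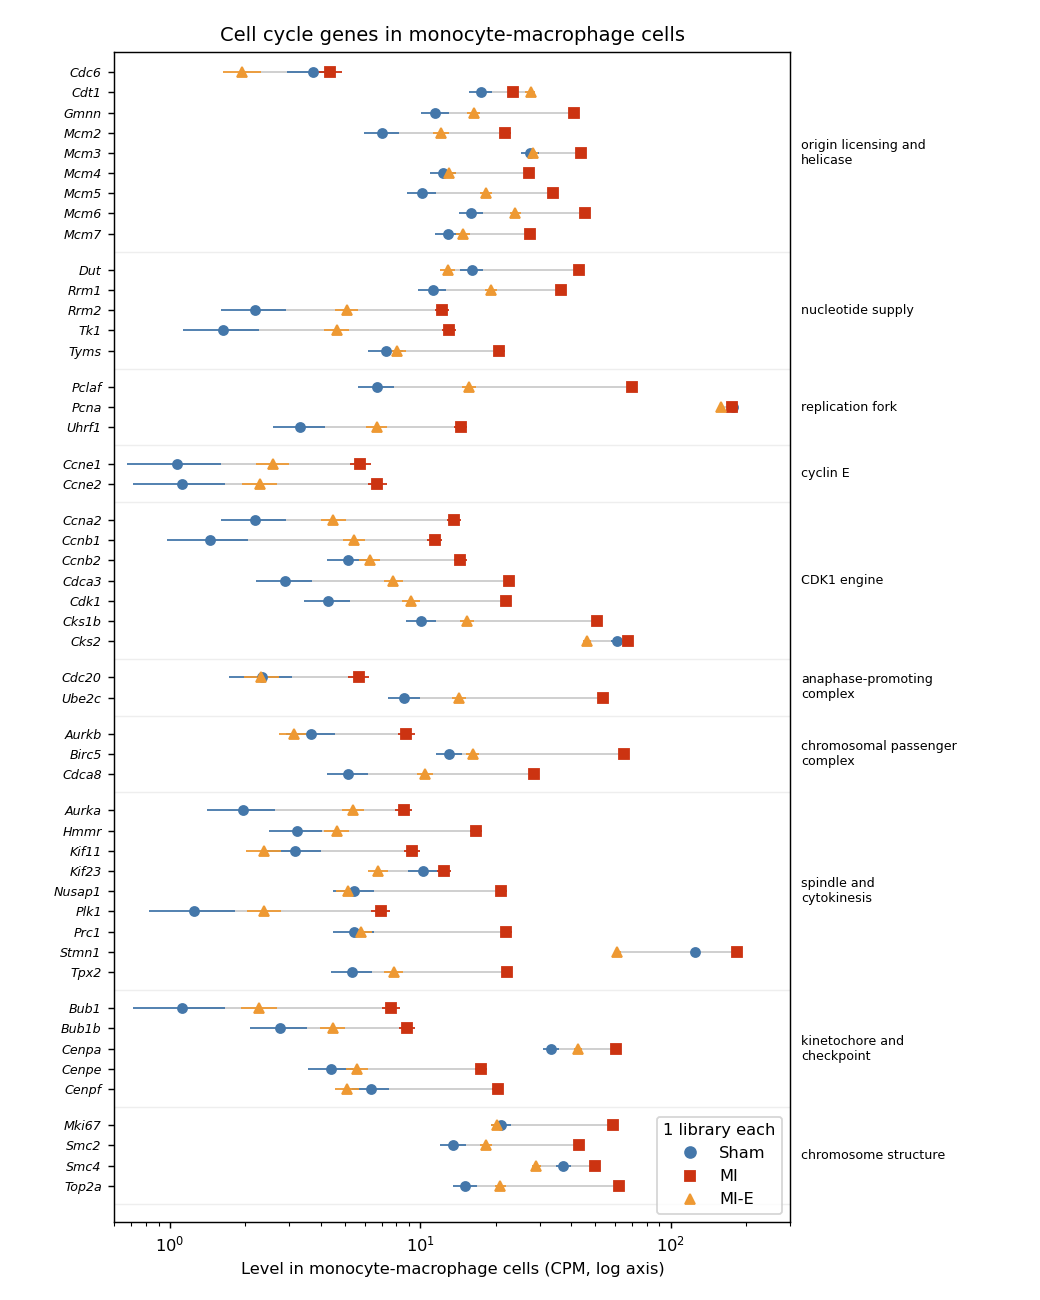
Level of each of the 49 members in monocyte-macrophage cells of the 3 libraries (CPM, log axis), grouped by role, with bars for the exact 95% Poisson interval. MI (squares) lies furthest to the right for 47 of 49 members, while Pcna is at 177, 175 and 158 CPM in Sham, MI and MI-E.

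Licensing genes prepare the origins from which DNA is copied, and most of them followed the class. The MCM2 to MCM7 proteins form the helicase ring. Mcm2 was at 7.01 CPM (Sham), 21.8 (MI) and 12.1 (MI-E), Mcm3 at 27.4, 43.9 and 28.2, and Mcm4 at 12.3, 27.0 and 13.01. The other subunits read 10.1, 33.8 and 18.3 CPM for Mcm5, 16.0, 45.4 and 24.0 for Mcm6, and 12.9, 27.3 and 14.8 for Mcm7. All 6 subunits were thus higher in MI, by 1.60-fold for Mcm3 (1.47 to 1.75) up to 3.34-fold for Mcm5 (2.91 to 3.85). Gmnn, the inhibitor that blocks a repeat of licensing, was at 11.5, 41.0 and 16.3 CPM. Its target Cdt1, a loader of the helicase that is removed once S phase begins, was at 17.4, 23.5 and 27.5 CPM. Cdt1 was the 1 member that was higher in MI-E than in MI, by 1.17-fold (1.10 to 1.25), and it was found in 22.8% of MI-E cells and 20.5% of MI cells. The other loader, Cdc6, stayed under 5 CPM in each library.

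Enzymes that supply nucleotides differed in the same direction. Dut, which removes dUTP, was at 16.1 CPM (Sham), 42.9 (MI) and 12.8 (MI-E). Rrm1, the large subunit of ribonucleotide reductase, was at 11.2, 36.4 and 19.2, and Tyms, thymidylate synthase, at 7.29, 20.6 and 8.08. Tk1, thymidine kinase, showed the largest fold of the 5, 8.00-fold in MI over Sham (5.71 to 11.6), on a Sham level of 1.62 CPM from 35 UMIs. At the fork, Pclaf, a partner of PCNA, was at 6.68 CPM (Sham), 70.0 (MI) and 15.6 (MI-E). It was 10.5-fold above Sham in MI (8.87 to 12.4) and 4.48-fold below MI in MI-E (4.19 to 4.79), the largest folds of all members in both comparisons. It was found in 1.08%, 12.7% and 3.91% of the cells, in the same order of libraries. Its partner Pcna was at 177, 175 and 158 CPM, and was found in 53.5%, 69.2% and 69.1% of cells. Such shares of cells for single members of this class are of unthinned cells, at median depths of 5032, 10080 and 9457.5 UMIs. The part of depth in them was not tested. The ratio of Pcna in MI over Sham was 0.99 (0.96 to 1.03), or 1.12 with TMM factors.

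The kinase CDK1 with cyclins A and B drives entry into mitosis. Cdk1 was at 4.27 CPM (Sham), 22.0 (MI) and 9.17 (MI-E), and Cdca3 at 2.88, 22.5 and 7.78. The CDK1 subunit gene Cks1b was at 10.1, 50.7 and 15.3. The cyclins Ccna2, Ccnb1 and Ccnb2 were all under 15 CPM and were 6.26-fold, 7.93-fold and 2.80-fold higher in MI than in Sham. Cks2, the paralog of Cks1b, was at 61.0, 67.5 and 46.1 CPM and differed by 1.11-fold between MI and Sham (1.04 to 1.18). Ube2c, the enzyme that hands ubiquitin to the anaphase-promoting complex, was at 8.63 CPM (Sham), 53.6 (MI) and 14.2 (MI-E). It was 6.21-fold above Sham in MI (5.36 to 7.23) and 3.77-fold below MI in MI-E (3.51 to 4.05). Cdc20, the activator of that complex, was at 2.32 CPM in both Sham and MI-E and at 5.67 in MI.

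Birc5, the survivin subunit of the chromosomal passenger complex, was at 12.99 CPM (Sham), 65.1 (MI) and 16.1 (MI-E). Cdca8, the borealin subunit, was at 5.15, 28.4 and 10.4. The kinase Aurkb was at 3.67, 8.79 and 3.13, so that all 3 subunits were highest in MI. Among spindle genes, Tpx2 was at 5.34, 22.2 and 7.83 CPM, Prc1, which bundles the central spindle, at 5.43, 22.0 and 5.81, and Nusap1 at 5.43, 21.1 and 5.15. The range of MI over Sham among the measured spindle and cytokinesis genes other than Stmn1 ran from 1.21-fold for Kif23 (1.04 to 1.41) to 5.22-fold for Hmmr (4.09 to 6.75). Kif23, a motor of cytokinesis, was at 10.3 CPM (Sham), 12.4 (MI) and 6.78 (MI-E). Stmn1 was at 124, 183 and 61.1 CPM, which is 1.47-fold above Sham in MI (1.41 to 1.54) and 3.0-fold below MI in MI-E (2.90 to 3.11).

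Of the kinetochore genes, Cenpf was at 6.36 CPM (Sham), 20.4 (MI) and 5.09 (MI-E). Cenpa, the histone variant of the centromere, was at 33.4, 60.4 and 42.7, a smaller range, and was found in 12.6%, 30.7% and 26.3% of cells. The genes of chromosome structure included Mki67, the Ki-67 antigen that coats mitotic chromosomes, at 21.0, 58.8 and 20.2 CPM. Top2a, the topoisomerase that untangles sister DNA, was at 15.1, 61.9 and 20.9. The condensin subunits were at 13.5, 42.8 and 18.3 for Smc2 and at 37.2, 49.6 and 29.05 for Smc4. Mki67 and Top2a in MI-E were 2.90-fold (2.73 to 3.09) and 2.97-fold (2.79 to 3.15) below their MI levels. Mki67 in MI-E stood at 0.97 of its Sham level, and at that distance its direction depends on the scaling, as do those of Pcna, Nusap1 and Cdc20. The other 19 members stayed under 20 CPM in each library, and their ranges were 1.07 to 10.3 CPM in Sham, 4.35 to 17.4 in MI and 1.95 to 6.78 in MI-E. All 19 had a higher point value in MI than in Sham and a lower one in MI-E than in MI.

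Further lists of the same pathways, which share no gene with the members, were read the same way. They too were chosen with earlier results of these data known, so they are no independent check. Of 18 measured further replication genes, 13 were at least 1.5-fold higher in MI than in Sham. In MI-E over MI 13 of 18 were as much lower, with 0 in the opposite directions. Over all genes 24.7% were higher in MI and 4.86% lower in MI-E. Clspn, a mediator of the replication checkpoint, was at 1.76, 10.9 and 3.16 CPM, and the helicase Hells at 6.08, 18.9 and 6.70. Of the further mitosis genes, 13 of 21 were higher in MI and 15 of 19 lower in MI-E, led by the kinetochore genes Cenpw at 4.83, 25.6 and 6.82 CPM and Spc24 at 2.97, 16.5 and 5.43. For MI-E over Sham the counts were 2 higher and 4 lower of 15 replication genes, and 0 higher and 3 lower of 12 mitosis genes. Over all genes the shares were 25.9% higher and 19.4% lower. Tipin and Pola1, of the replication machinery, were at 9.29 and 6.78 CPM in MI-E and 19.6 and 13.4 in Sham, and the histone variant gene H2afz at 761 CPM against 1283.

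Genes upstream of S phase did not move as a block. Of 12 measured cyclin D, G1 kinase and E2F genes, 5 were at least 1.5-fold higher and 2 lower in MI than in Sham. Over all genes 24.7% and 18.7% were. In MI-E over MI 0 of the 12 were past 1.5-fold either way, where 4.24% of all genes were higher and 4.86% lower. Listed genes under the filter, looked up after the count was known, were all lower in MI-E than in MI. Foxm1 was at 1.86 CPM (Sham), 5.03 (MI) and 2.22 (MI-E), Mybl2 at 0.42, 3.12 and 1.11, and E2f8 at 1.07, 5.27 and 2.36. E2f7 was at 0.42, 1.82 and 0.46, E2f2 at 1.90, 5.59 and 4.39, and Skp2 at 1.90, 2.44 and 1.62. Ccnd2, a D cyclin, was at 58.0 CPM (Sham), 23.7 (MI) and 29.1 (MI-E), and Myc at 21.1, 9.72 and 7.50. E2f1 was at 11.2, 17.7 and 13.01 CPM and Cdk4, the partner of D cyclins, at 67.3, 95.6 and 71.6. Among 21 measured brakes on the cycle, 2 were higher and 8 lower in MI than in Sham, the first under and the second above the shares over all genes. Klf2, a factor linked to quiescence, was at 571 CPM (Sham), 57.3 (MI) and 54.4 (MI-E), and the kinase inhibitor Cdkn1c at 18.7, 1.85 and 2.68. Btg2 was at 393, 87.6 and 69.8 CPM. For MI-E over MI 1 of 19 brakes was higher and 2 were lower, against 4.24% and 4.86% of all genes. The lower ones were the kinase inhibitor Cdkn2c, at 12.8, 8.76 and 4.64 CPM, and Rbl1, at 10.5 CPM in MI and 5.90 in MI-E. The higher one, looked up after the count was known, was Btg1, at 690 CPM in MI and 1120 in MI-E. Of 8 measured mitogen receptors and growth factors, 4 were higher and 2 lower in MI than in Sham (24.7% and 18.7% of all genes). In MI-E over MI 1 was higher and 1 lower (4.24% and 4.86% of all genes). Csf2rb, the shared receptor chain for GM-CSF, was at 29.8, 100 and 173 CPM, Il7r at 6.68, 62.3 and 75.8, and Igf1 at 224, 72.7 and 42.1.

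Replication and mitosis members were next set against each other. In monocyte-macrophage cells the ratio of mitosis to replication UMIs was 0.84 in Sham (0.81 to 0.87), 1.22 in MI (1.20 to 1.23) and 0.84 in MI-E (0.83 to 0.86). Pcna alone held 51.1% of the replication UMIs (Sham), 26.3% (MI) and 40.4% (MI-E). Without Pcna and Cks2, the top members of the lists, the ratios were 1.36, 1.52 and 1.22, so mitosis members then outnumbered replication members in all 3 libraries. In cells with at least 5 members they were 2.88 in Sham, from 51 cells, 1.81 in MI and 1.83 in MI-E, which puts Sham highest. The order of the libraries in this ratio therefore depends on which members and cells are counted. Over other classes the ratio ran from 0.52 in Sham endothelial cells (0.44 to 0.60) to 1.92 in Sham neutrophils (1.56 to 2.36), and in neutrophils Cks2 was the leading member.

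**Figure D2:**
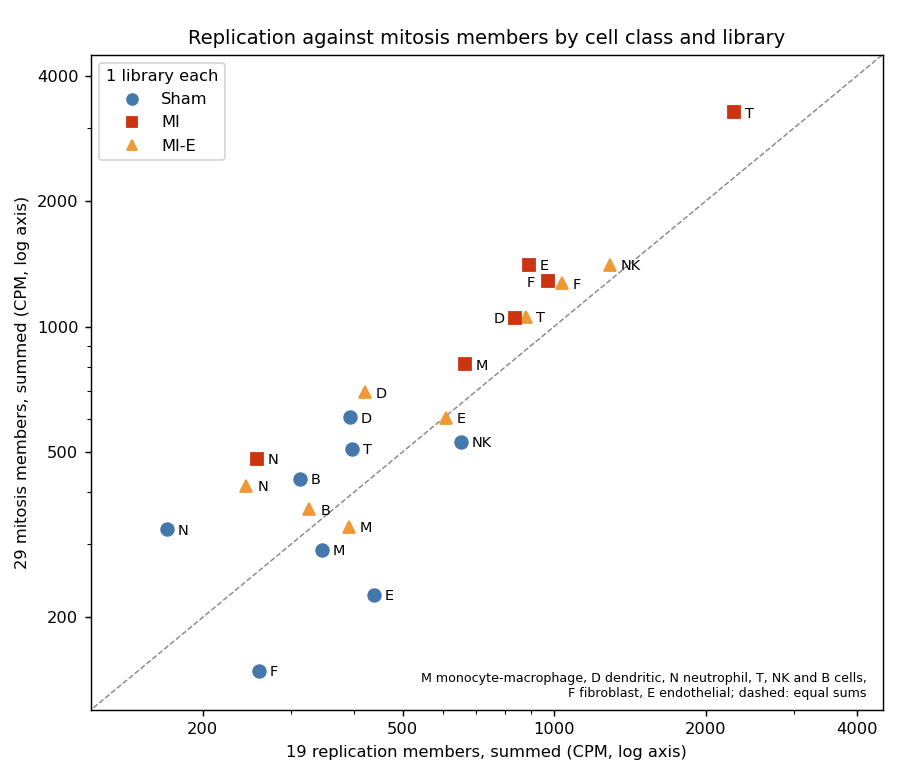
Summed level of the 19 replication members against the 29 mitosis members in each cell class and library (CPM, log axes), with a dashed line where the sums are equal. T cells of MI lie highest, at 2278 and 3268 CPM, and monocyte-macrophage cells cross the line only in MI (665 and 811 CPM).

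To count cells, each cell was thinned to 1500 UMIs and called when at least 3 different members were found in it. By this call 4.92% of Sham monocyte-macrophage cells carried the programme (187 of 3803, 4.25 to 5.65). The share was 16.4% in the MI library (1077 of 6554, 15.5 to 17.4) and 5.29% in the MI-E library (328 of 6205, 4.74 to 5.87). Without thinning the shares were 33.9%, 67.5% and 57.8%, at median depths of 5032, 10080 and 9457.5 UMIs. The background in neutrophils at the same thinned depth was 1.22% in Sham (4 of 328), 5.62% in MI (14 of 249) and 3.16% in MI-E (81 of 2562), at unthinned medians of 1743, 1768 and 2104 UMIs. The intervals of these background shares were 0.33 to 3.09, 3.11 to 9.25 and 2.52 to 3.91, and each lay below the interval of the monocyte-macrophage share in the same library. A background of neutrophils need not hold for another class, since Sham B cells met the 3-member call at 8.75% and the 5-member call at 0.18%. What part of the 3-member shares is background in monocyte-macrophage cells was therefore not settled. With at least 5 members the neutrophil share fell to 1 cell in Sham, 1 cell in MI and 0 of 2562 in MI-E, which allows up to 0.117%. At that call the Sham share of monocyte-macrophage cells was 1.34% (51 cells, 1.0 to 1.76), the MI share 10.0% (658 cells, 9.32 to 10.8) and the MI-E share 2.03% (126 cells, 1.69 to 2.41). At least 10 members were found in 18, 249 and 38 cells, and in 0 neutrophils of any library.

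By the 3-member call the MI share was 3.34 times the Sham share (2.86 to 3.92) and the MI-E share was 3.11-fold below that of MI (2.74 to 3.53). With 5 members these ratios were 7.49 (5.63 to 10.2) and 4.94 (4.08 to 6.03). MI-E over Sham was 1.08 (0.90 to 1.29) by the 3-member call and 1.51 (1.09 to 2.14) by the 5-member call. When Pcna, Stmn1, Cks2, Cenpa and Smc4, which many cells carry, were not counted, the 3-member shares were 2.00%, 12.1% and 2.77%. The called cells held 24.0% of the replication UMIs of the class (Sham), 62.9% (MI) and 32.7% (MI-E), and 49.9%, 81.2% and 53.9% of the mitosis UMIs. By number of different members found, 98 called cells of Sham held more replication and 63 more mitosis members. These counts were 474 and 510 in MI, and 163 and 131 in MI-E, the rest holding as many of each. A call from the further genes alone asked for 2 or more of them, after 4 abundant ones were left out. It was met by 9.12%, 17.3% and 8.12% of the class. The overlap with the 3-member call was small outside MI: 23.1% (Sham), 61.3% (MI) and 31.0% (MI-E) of these cells held at least 3 members. Their median number of members was 1, 4 and 1. Over all cells that met the further call, replication members summed to 832, 1755 and 1207 CPM. In the other cells of the class they summed to 289, 357 and 297 CPM. Predicted doublets had been removed. Over all classes, 31.1% of the 659 marked barcodes of MI would have met the 3-member call, against 17.0% of those not marked. These shares were 7.46% and 7.09% in Sham, and 7.13% and 5.93% in MI-E. With marked barcodes kept the MI share of monocyte-macrophage cells was 17.7%.

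**Figure D3:**
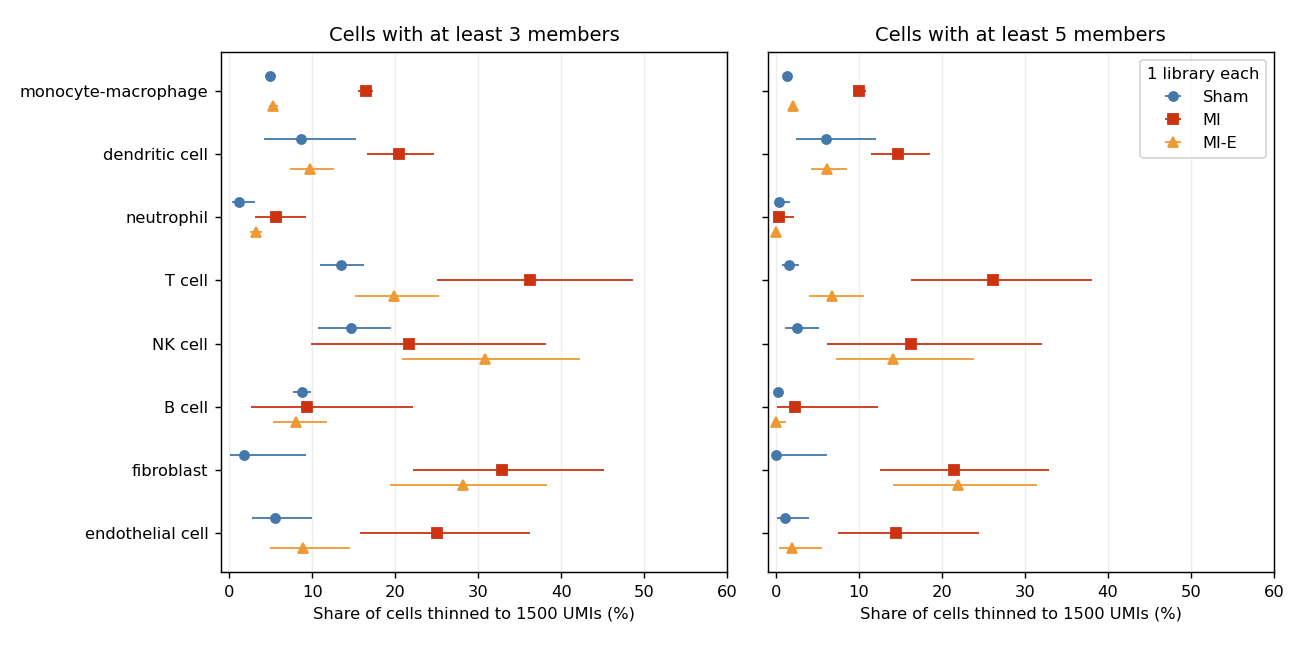
Share of cells that carry at least 3 members (left) or at least 5 (right) after thinning to 1500 UMIs, by cell class and library, with exact 95% binomial intervals. Neutrophil shares reach 5.62% on the left and stay under 1% on the right, where fibroblasts of MI and MI-E stand at 21.4% and 21.9%.

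The share of called cells differed widely between clusters of the class. It was highest in cluster 16, led by Hpgd, Mgl2 and Gpr34 with Lyve1 among its leading genes, at 49.2% in MI (32 of 65, 36.6 to 61.9) against 4.24% in Sham (14 of 330, 2.34 to 7.02), a ratio of 11.6 (6.02 to 23.5). Next came cluster 13, led by Ccl8, Cela1 and C4b with Igf1, Gas6 and Cbr2, at 40.2% in MI (155 of 386) and 26.5% in MI-E (50 of 189). Clusters 6 and 2, led by Syngr1, Fabp5 and Gpnmb, held 25.2% and 17.3% in MI and 12.98% and 6.07% in MI-E. The Arg1-led cluster 1 held 8.66% in MI and 3.51% in MI-E, and the interferon gene cluster 15 held 12.3% and 3.69%. Cluster 4, with the classical monocyte genes Ly6c2 and Plac8, held 0.73% (Sham), 3.43% (MI) and 0.91% (MI-E), all below the neutrophil share of the same library. With 5 members its counts were 0, 0 and 1 cell. The MI-E share was below the MI share in 7 of the 8 clusters that both libraries filled, by 1.52-fold in cluster 13 (1.10 to 2.13) to 3.75-fold in cluster 4 (1.69 to 8.48). The exception was cluster 20, led by Plac8, Apoc2 and Il1b, at 5.63% in MI and 9.21% in MI-E, a ratio of 1.64 whose interval holds 1 (0.57 to 4.15). The Sham clusters 3 and 11 held 4.90% and 4.84%. Clusters 2 and 6 supplied 280 and 326 of the 1077 called cells of MI, and cluster 3 supplied 110 of the 187 of Sham.

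**Figure D4:**
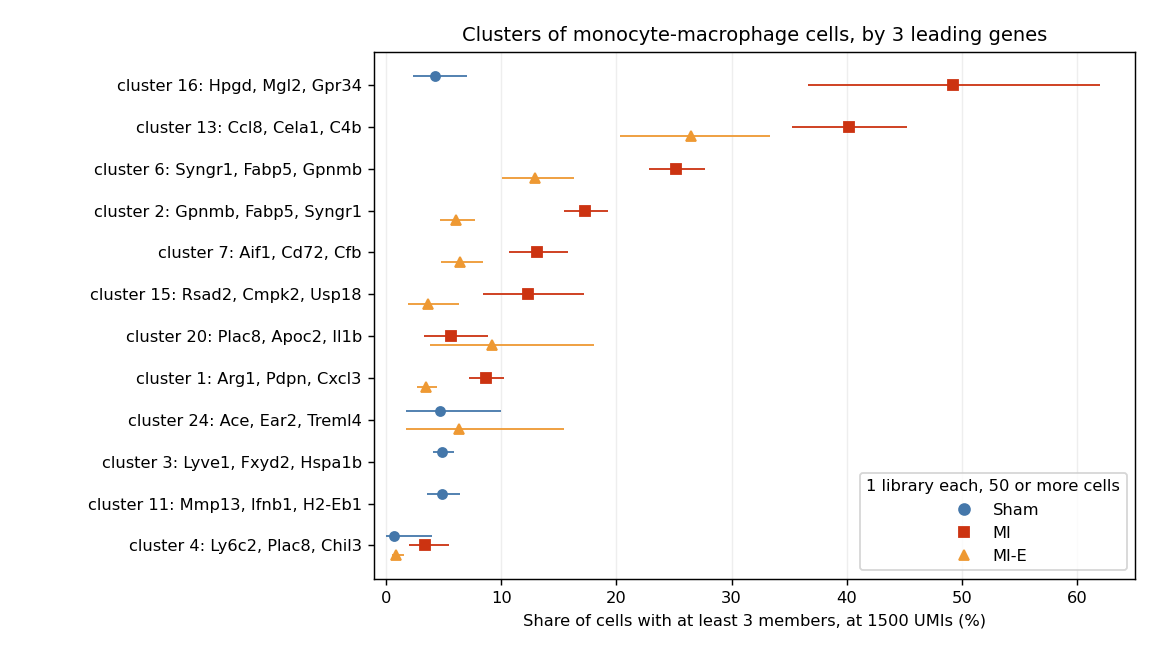
Share of cells with at least 3 members in each cluster of monocyte-macrophage cells, for libraries with at least 50 cells in it, with exact 95% binomial intervals. Clusters 16 and 13 stand at 49.2% and 40.2% in MI, while cluster 4, led by Ly6c2, is at 0.73%, 3.43% and 0.91% in Sham, MI and MI-E.

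Other genes of the called cells were read against cells of the same class and library without any member. Called cells were deeper, with median UMIs of 7204 against 5135 in Sham, 14720 against 9445 in MI and 14551.5 against 9366 in MI-E. Lyve1, a gene of resident macrophages, was at 27.6 CPM in called and 14.3 CPM in other MI cells, 1.93-fold higher (1.69 to 2.21), and 2.92-fold higher in MI-E (2.40 to 3.54). Timd4, another resident marker, was 2.28-fold (1.53 to 3.43) and 4.77-fold (3.13 to 7.24) higher, and Cd163 1.95-fold and 2.65-fold. In Sham the same comparison gave 0.77 for Lyve1 (0.68 to 0.86) and 0.71 for Timd4. Genes of classical monocytes were lower in called cells of all 3 libraries: Ly6c2 was 5.13-fold lower in MI (4.71 to 5.60) and 4.63-fold lower in MI-E (4.30 to 4.99), and Plac8 4.43-fold and 3.82-fold lower. In Sham Plac8 was 8.29-fold lower (5.91 to 12.0), and Ly6c2 had 0 UMIs in called cells against 56.2 CPM in the others. Ccnd1, a D cyclin, was 2.11-fold higher in called cells of MI and 3.70-fold higher in MI-E, and 1.39-fold in Sham (1.17 to 1.66). Cdkn1a, the p21 inhibitor of cyclin kinases, was 1.75-fold lower in called cells of MI, 1.68-fold lower in MI-E and at 1.02 of the other cells in Sham. The MHC class II genes H2-Aa and Cd74 were 1.79-fold and 1.69-fold lower in called cells of MI and within 1.09-fold in MI-E. In Sham they were 1.36-fold and 1.42-fold lower. Summed neutrophil markers were at 265 CPM in called and 755 CPM in other MI cells, and over the whole class at 117, 629 and 456 CPM in Sham, MI and MI-E. Their part in the levels of the class was not tested.

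**Figure D5:**
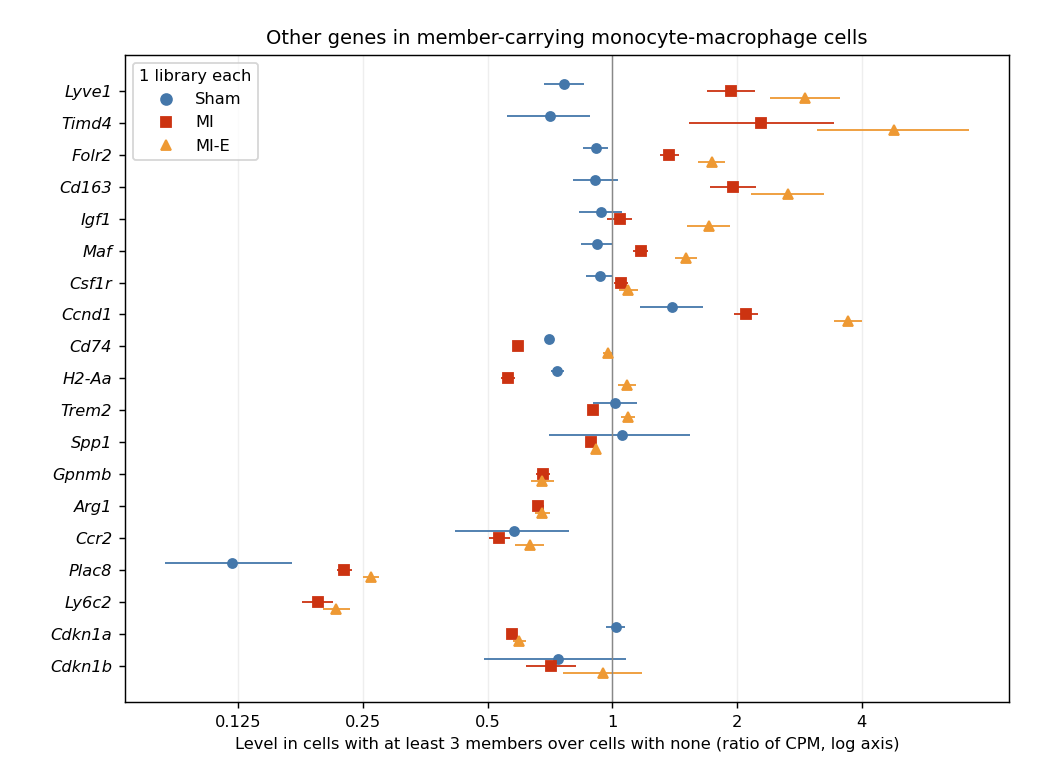
Ratio of the level in monocyte-macrophage cells with at least 3 members to that in cells with none, for 19 other genes in each library (log axis, exact 95% interval of a ratio of counts). Lyve1, Timd4 and Cd163 lie right of 1 in MI and MI-E, and Ly6c2 and Plac8 lie left of it. Points with under 3 UMIs in the called cells are not drawn.

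Among all classes and libraries drawn, T cells of MI had the highest summed level of the members. In MI, where only 70 T cells were found, 46 of 48 measured members were at least 1.5-fold higher than in Sham (background 37.1% of 7994 genes), with a median log2 ratio of 3.73. Pclaf was at 2.64 CPM in Sham T cells, 515 in MI and 99.2 in MI-E, Dut at 52.1, 368 and 127, and Stmn1 at 108, 898 and 233. The smallest difference between MI and Sham among members of at least 10 CPM was that of Smc4, at 181 and 224 CPM. In MI-E, 43 of 49 were at least 1.5-fold lower than in MI (background 20.3% of 8221 genes). Members of at least 10 CPM ranged from Cenpe, at 52.2 (MI) and 5.56 CPM (MI-E), to Cenpa, at 184 and 151. MI-E also stood above Sham, with 34 of 39 members higher (background 33.6% of 8028 genes). The T cells were of 2 clusters in unequal shares, the Lef1-led cluster 12 holding 615 of 711 cells in Sham, 29 of 70 in MI and 100 of 255 in MI-E, and the other cells being of cluster 21, led by Cd3g and Icos. At least 5 members were found in 1.51% of T cells in Sham (10 of 664), 26.1% in MI (18 of 69) and 6.75% in MI-E (17 of 252). At least 3 members were found in 13.4%, 36.2% and 19.8%. Without Pcna, Stmn1, Cks2, Cenpa and Smc4 the 3-member shares were 1.66%, 26.1% and 7.14%. Within cluster 21 the 5-member share was 6.32% in Sham (6 of 95, 2.35 to 13.2), 43.9% in MI (18 of 41, 28.5 to 60.3) and 10.97% in MI-E (17 of 155, 6.52 to 17.0). The ratio of MI-E to Sham there was 1.74, with an interval that holds 1 (0.65 to 5.38), and 32 of 44 measured members were higher in MI-E (background 25.2% of 8266 genes). All 18 MI cells and all 17 MI-E cells with 5 members were in cluster 21. NK cells were too few in MI for a comparison (37 cells). Their 5-member share was 2.57% in Sham (7 of 272) and 14.1% in MI-E (11 of 78). Of 44 measured members 39 were higher in MI-E NK cells (background 22.2% of 8221 genes), led by Stmn1 at 301 and 503 CPM, Dut at 72.3 and 218, and Top2a at 23.3 and 218. Ccnb2 showed the largest ratio among members of at least 10 CPM, from 2.33 to 35.9 CPM. It rested on 2 UMIs in Sham and 15 in MI-E, with a ratio interval of 3.59 to 139. Pcna showed the smallest, at 183 and 173 CPM.

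B cells gave little sign of the programme. At least 5 members were found in 5 of 2731 Sham B cells and 0 of 298 in MI-E, which allows up to 1.01%, although the 3-member shares were 8.75% and 8.05%. Cenpa, which led the members there, was at 226 CPM in Sham and 129 in MI-E, Pcna at 104 and 115, Stmn1 at 102 and 58.0, and Top2a at 7.74 and 15.5. Of 19 measured members 4 were higher and 3 lower in MI-E (background 14.5% and 14.8% of 7775 genes). In dendritic cells the 5-member share was highest in MI: it was 6.03% in Sham (7 of 116), 14.7% in MI (60 of 407) and 6.10% in MI-E (32 of 525). With at least 10 members no such order was seen, at 4, 13 and 9 cells or 3.45%, 3.19% and 1.71%, which puts MI at 0.93 of Sham (0.29 to 3.90). In MI 37 of 43 members were higher than in Sham and 1 was lower (background 29.4% and 13.3% of 7598 genes), and in MI-E 32 of 44 were lower than in MI (background 7.71% of 7689 genes). Stmn1 was at 195, 379 and 144 CPM in Sham, MI and MI-E dendritic cells, Pclaf at 82.9, 186 and 58.1, and Pcna at 93.8, 156 and 104. Ccnb1 was the 1 member at least 1.5-fold lower in MI, at 29.6, 8.98 and 5.39 CPM, and Hmmr was at 0, 16.7 and 4.81. Rrm2 was furthest down in MI-E, at 30.02 and 7.70 CPM, Cenpa was at 138, 105 and 132, and Cdk1 at 3.95, 27.8 and 14.6.

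In fibroblasts, which the sort should have left out, few members were past 1.5-fold between MI and MI-E. How this differs from the other classes was not tested. The 3-member share was 1.72% in Sham (1 of 58), 32.9% in MI (23 of 70, 22.1 to 45.1) and 28.1% in MI-E (27 of 96, 19.4 to 38.2), and the ratio of MI-E to MI was 0.86 (0.47 to 1.56). In MI 43 of 44 measured members were higher than in Sham (background 23.4% of 9806 genes). For MI-E over MI, 5 of 49 were higher and 6 lower (background 13.7% and 11.3% of 9614 genes), with a median log2 ratio of 0.10. Pclaf was at 6.57, 170 and 117 CPM, Stmn1 at 30.7, 177 and 167, and Pcna at 87.6, 120 and 152. Birc5 was at 0 (Sham), 114 (MI) and 94.4 (MI-E), Gmnn at 2.19, 65.1 and 28.6, and Uhrf1 at 6.57, 12.7 and 26.5. Endothelial cells, by contrast, stood at 5.52%, 25% and 8.92% by the 3-member call, and 45 of 48 members were higher in MI than in Sham (background 26.3% of 9482 genes) and 36 of 49 lower in MI-E than in MI (background 17.6% of 9421 genes). Their median depth was 1766 UMIs in Sham and 11090 in MI, so that 165 of 346 Sham cells were too shallow to be thinned. Pclaf was at 5.53, 136 and 44.8 CPM in them, Stmn1 at 133, 369 and 164, Tpx2 at 0.92, 46.0 and 22.7, and Tyms at 16.6, 46.0 and 65.2. Pcna, at 262, 183 and 189 CPM, was lower in MI, and Kif11 was at 2.76, 16.5 and 1.75.

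Neutrophils, read as the background, were made of different clusters in the libraries: cluster 17, led by Retnlg and S100a8, held 397 of the 424 cells of Sham, while clusters 5 and 8, led by Cstdc4 and Gpr84, held 154 and 193 of 361 cells of MI and 1809 and 1151 of 2982 of MI-E. Differences from Sham are thus between clusters as well as libraries. Only 16 of 49 were measured for MI over Sham, 4 higher and 5 lower (background 39.2% and 17.6% of 6733 genes). Cks2 was at 111 CPM (Sham), 360 (MI) and 315 (MI-E), Pcna at 91.6, 164 and 173, and Cenpa at 51.2, 13.1 and 14.1. Ube2c was at 28.6, 3.56 and 1.62 CPM, Kif23 at 21.4, 11.9 and 13.9, and Mcm4 at 4.76, 10.7 and 4.48. The mitosis members together were at 326, 481 and 414 CPM in neutrophils and at 290, 811 and 330 CPM in monocyte-macrophage cells. The median log2 ratio of the neutrophil members was 0.13 between MI and Sham, and 0.055 between MI-E and MI.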

How the data were processed

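Single-cell libraries were made with 10x 3' v3.1 chemistry from CD45-sorted heart cells, 1 library per group. Per the submitters' processing notes the authors used Cell Ranger 5.0.1 and mm10, and they deposited raw UMI counts for 32285 genes in called barcodes. Sources used here give no annotation release. The members, the further lists and the cell markers were chosen with earlier results of these data known, so no list is independent of them. Members were named by role: in monocyte-macrophage cells all those with at least 20 CPM in 1 library, in other classes the 3 highest over libraries of at least 50 cells and, per comparison, those furthest up and down on log2 of CPM + 1 among members of at least 10 CPM in either library. Of the further lists the 2 furthest from no change per comparison were named, among genes of at least 10 CPM in any library.

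Cells with under 200 genes or over 10% mitochondrial UMIs were removed. Scrublet (scanpy 1.11.5) marked doublets at an expected rate of 0.8% per 1000 barcodes in each library (1032 in Sham, 662 in MI, 1292 in MI-E), since its automatic threshold marked under 0.5%. Counts were scaled to 10000 and logged. The 2000 most variable genes, without cell cycle and histone genes, gave 30 components, 15 neighbours and Leiden clusters at resolution 1. A cluster took the name of its best marker list (at least 3 markers in at least 20% of cells). Of those that met this, 4 stayed unnamed and are in no class. Clusters 9 and 19 had low UMIs and none of their own markers among their 10 leading genes. Clusters 23 and 27, best matched to classical monocytes and macrophages, had more markers of another class than of their own among those 10. The naming thresholds were set after clusters had been seen. UMIs were summed per class and library. Intervals are exact: Poisson for levels, Clopper-Pearson for shares, and a conditional binomial for ratios, at 95%. A share of 0 is given with the limit that 3 cells allow. Functions for thinning, ratios and calls were tested on simulated data. Alternatives covered the filter, pseudocount, TMM factors (edgeR 4.0.16), doublets, clustering, naming, thinning depth and the member call.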

Additional observations from a re-analysis of the deposited data

Results flagged for a closer look

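For MI-E over MI the median log2 ratio of the members was 0.10 in fibroblasts and 0.055 in neutrophils, while it was -1.25 in monocyte-macrophage cells. For MI-E over Sham it was -0.59 in neutrophils and 0.29 in monocyte-macrophage cells. The signs of these medians differ from that of monocyte-macrophage cells under the same comparison, but 0.10 and 0.055 are near no change, and in fibroblasts 5 of 49 members were at least 1.5-fold higher and 6 lower. Neutrophils were mostly cluster 17 in Sham (397 of 424 cells) and clusters 5 and 8 in MI-E (1809 and 1151 of 2982). Each value is from 1 library a group, and the difference between classes was not tested.

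The 4 clusters without a name stood outside every class, and in 3 of them the interval of the 3-member share lay above the highest neutrophil share of 5.62% in a library or over all. In cluster 27, of 40 cells over all libraries, 72.5% met the 3-member call and 25 cells held at least 5. It was led by Ctsk, Atp6v0d2 and Acp5, genes known from osteoclasts that were found in 37.5%, 57.5% and 90.0% of its cells, and its median depth was 25757.5 UMIs. In it Ube2c stood at 343 CPM and Pclaf at 322. In cluster 23 of MI, led by Saa3, Fn1 and Cd5l, the share was 16.4% (35 of 213). In cluster 19 of MI, led by Gm26917 and Lars2 in cells of low depth, it was 35.0% (14 of 40). In the fourth, cluster 9 of Sham, the share was 8.00% (10 of 125), with an interval that reaches below the neutrophil share (3.90 to 14.2).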

How the results depend on the processing

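No paired analysis was possible because each group is 1 library. For MI over Sham in monocyte-macrophage cells, the members' median log2 ratio was 0.93 with a pseudocount of 10 and 2.00 within clusters 4 and 16. At a filter of 20 CPM, 15 of 20 members were past 1.5-fold. For MI-E over MI the median was -1.0 at 20 CPM, -0.71 with a pseudocount of 10 and -0.64 within clusters, with 17 members past 1.5-fold at 20 CPM and 22 within clusters. For MI-E over Sham it reversed to -0.10 at 20 CPM, where 8 members were measured, and was 0.49 with TMM factors and 0.67 when cell cycle genes entered the clustering. The number past 1.5-fold was then 22, against 25 with no filter and 2 at 20 CPM. The first pair of comparisons kept its direction under each alternative run.

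The share of called cells, given for Sham, then MI, then MI-E, was 2.57%, 11.7% and 3.34% at 1000 UMIs, 15.3%, 28.1% and 14.4% at 3000, and 33.9%, 67.5% and 57.8% without thinning. It was 17.7%, 27.3% and 15.6% with 2 members, 1.34%, 10.0% and 2.03% with 5, and 0.47%, 3.80% and 0.61% with 10. Without 5 widely carried members it was 2.00%, 12.1% and 2.77%. With 2 further genes in place of members it was 65.1%, 62.5% and 54.8%, since 4 of these genes are abundant in all cells. Without those 4 it was 9.12% in Sham and 8.12% in MI-E, though most of these cells held under 3 members. In cluster 4, which alone was filled in all libraries, it was 0.73%, 3.43% and 0.91%. With cell cycle genes in the clustering the share was 20.1% in MI and 6.85% in MI-E, or 17.5% in MI once clusters led by a marker of another class were kept, and 17.7% in MI with doublets kept.

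The ratio of mitosis to replication UMIs, in the same order, was 0.88, 1.31 and 0.99 with cell cycle genes in the clustering, and 0.88, 1.25 and 0.89 when clusters led by another class's marker were also kept. It was 0.88 in Sham when each library was clustered alone. Without Pcna and Cks2 it was 1.36, 1.52 and 1.22, which reversed Sham and MI-E. The median over called cells was 0.60, 1.00 and 1.00, and in cells with at least 5 members it was 2.88, 1.81 and 1.83. Alternatives chosen after seeing the data were the calls with 10 members, without 5 widely carried members and with further genes lacking 4 abundant ones, the ratio in cells with 5 members, the naming that keeps clusters led by another class's marker, and the T cell values within cluster 21. The cause of these moves was not tested. Cell number limits the rare classes: 37 NK and 49 B cells in MI were under the 50 required. Depth limits the shares, since 165 of 346 Sham endothelial cells were too shallow to thin.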
